A study of Homo sapiens with 3 samples.

Results

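The MB sample, RNA of melanoma bodies, was compared with the OM sample, RNA of the original monolayer from which the bodies were grown. Both came from 1205Lu, a human melanoma line derived from a lung metastasis of the WM793 line in a mouse. OM cells had been kept for 14 days as an adherent monolayer in standard medium (RPMI-1640 with 10% fetal calf serum). MB cells had been kept for 14 days in hESC medium, a medium made for human embryonic stem cells, with DMEM/F-12, 20% KnockOut serum replacement, nonessential amino acids, L-glutamine and 2-mercaptoethanol. In it the line aggregates into compact, attached 3D bodies, which were collected by detaching them. MB and OM are 2 of the 3 samples of the series, and the third, NM (the new monolayer), is given beside them for the leading genes. NM cells had 14 days in hESC medium as bodies and then 10 days in standard medium, with the bodies left over removed.

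Growth form, serum, basal medium and supplements all changed between OM and MB at the same time, so their parts in any difference cannot be told apart. The paper also reports that hESC medium had to be renewed daily to keep the bodies, and it states no feeding schedule for the OM sample. Each group is 1 RNA sample of 1 cell line on 1 array. There was thus no replicate, no test was possible, and every fold below describes these 2 RNA samples. Fewer cells of a kind and less RNA per cell cannot be told apart in such bulk RNA.

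Melanocytes, the cells that give rise to melanoma, descend from the neural crest, an embryonic population that also yields Schwann cells and other glia. Melanoma cells can move between pigmented, neural crest-like and inflammatory or invasive patterns of gene expression. Serum carries cholesterol, lipids and growth factors. Genes of sterol synthesis are switched on by SREBP2 when sterols are short, and those of amino acid synthesis and import by ATF4 when amino acids are short or the endoplasmic reticulum is stressed.

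Each array carried 41000 probes, of which the scanner software marked 28746 as well above background for OM, 29125 for MB, and 26516 for NM. Through a current gene table, 17515 named genes were represented, and 14034 of them were measured, meaning well above background on OM, on MB or on both. Signals are given unscaled in arbitrary units (a.u.), and the ratios are of signals divided by each array's 75th percentile, which was 1.11 times as high on MB as on OM. Where the dimmer of the pair lay under that flag, its level was held at the lowest signal well above background (20.9 a.u. on OM and 19.4 on MB) and the fold is written as "at least". The software attaches an error of about 10% to a single spot above 100 a.u., which gives 0.20 for a log2 ratio. Over the 201 probes printed in 10 spots with more than 100 a.u. on both arrays, the spread between spots was smaller, with a median SD of 0.06 for a log2 ratio of MB over OM taken from a single spot on each, a 1.04-fold difference. Neither includes the difference between cultures.

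The labelled cell type was checked with marker genes. Of the melanocyte lineage factors, SOX10 read 6254 a.u. on OM and 9382 on MB, PAX3 2887 and 3501, and MITF 423 and 718. The pigment genes TYR and TYRP1 were not well above background on either array, MLANA read 31.3 and 39.5 a.u., DCT 66.7 and 62.8 and PMEL 286 and 209. Of the embryonic stem cell markers NANOG, LIN28A, DPPA4 and ZFP42 were not well above background in either sample, while POU5F1 read 212 a.u. on OM and 281 on MB. Markers of other cell types gave mixed levels. Of 6 fibroblast markers 2 passed background in OM and 3 in MB, with a summed signal of 2244 and 3162 a.u., and COL1A1, COL3A1 and LUM were at background. Of 6 keratinocyte markers 3 and 2 were above it (39429 and 39773 a.u., nearly all of it KRT10), with KRT5 at background. Of 4 endothelial markers a different 1 was above it on each array, KDR on OM (26.7 a.u.) and PECAM1 on MB (87.7 a.u.), with CDH5 at background. Of 5 leukocyte markers 4 were above it (4989 and 2077 a.u.), with PTPRC at background. Of the 6 neuronal markers 5 were above it (71562 and 64797 a.u.), mainly TUBB3. CD68, a lysosomal protein, and NEFL, a neurofilament, were lower in MB, with 4716 and 1727 a.u. and with 1227 and 288 a.u. Their part in the results below was not tested.

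Most genes differed little. Of the 14034 measured genes, 89.6% lay within 2-fold of each other on MB and OM, and their median log2 ratio was -0.05 with an SD of 0.71. On MB, 650 genes (4.63%) were 2-fold or more higher and 805 (5.74%) were 2-fold or more lower. A 5-fold or greater difference was found for 101 genes (0.72%) higher in MB and 109 (0.777%) lower. These shares are the background against which the members of each gene list are counted below. The balance between higher and lower genes depended on how the arrays were scaled. Of the genes past 2-fold, 44.7% were higher in MB with the 75th percentile, 62.2% when the arrays were scaled to GAPDH, ACTB and HSP90AA1, 51.2% after quantile normalization, 58.8% without scaling and 35.7% with spike-in scaling. The median log2 ratio of all measured genes moved with it, from -0.15 with the spike-ins to 0.14 with the 3 housekeeping genes, so each list is best read against the median of all genes.

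**Figure D1:**
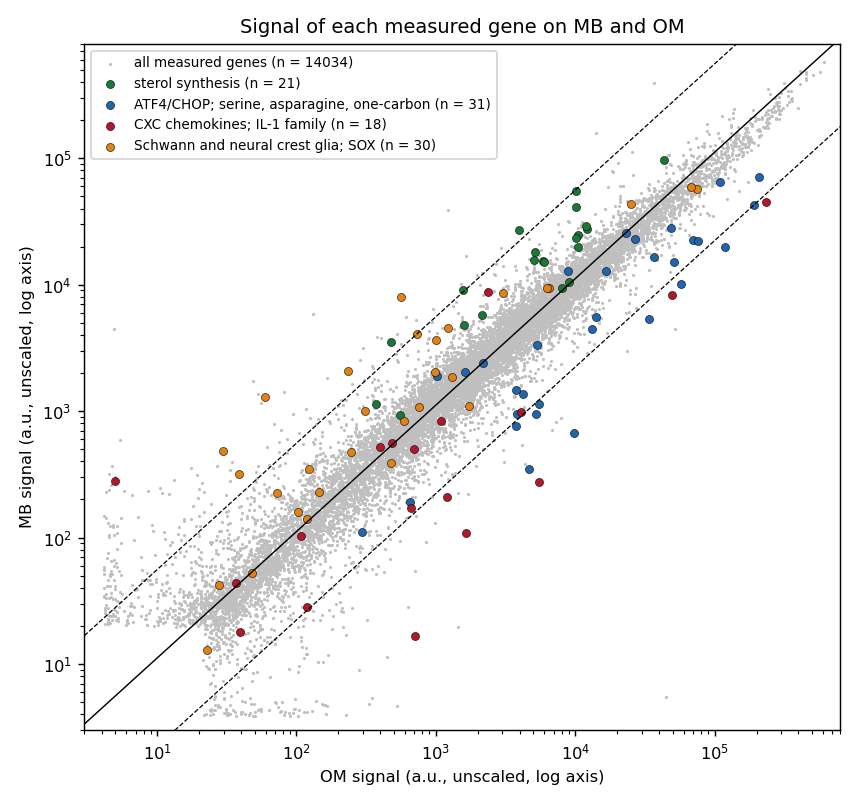
Unscaled signal of each measured gene on OM (horizontal) and MB (vertical), in a.u. on log axes, with 1 point per gene. The solid line marks equal signals after scaling to the 75th percentile and the dashed lines a 5-fold difference. Sterol synthesis genes (green) lie above the solid line, and most genes of the ATF4 and serine lists (blue) lie below it. Red points are CXC chemokine and IL-1 family genes, and orange points are Schwann cell, glia and SOX genes.

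Among known genes well above background on both arrays, the 12 with the largest fold higher in MB were led by MGP (chr12:14926207-14926266, hg17), matrix Gla protein, an extracellular inhibitor of calcification. MGP gave 132 ± 14.0 a.u. in OM, 5906 ± 591 in MB, and 62.9 in NM (errors of the scanner software for 1 spot), a 40.2-fold difference between MB and OM. COL15A1, a basement membrane collagen, gave 48.5 a.u. in OM, 1728 in MB, and 462 in NM, 32.0-fold higher in MB, and its other probe gave 20.8-fold. S100A4, a calcium-binding protein linked to cell motility, gave 1215 a.u. in OM, 39077 in MB, and 1033 in NM, a 28.9-fold difference. All 3 were far above OM, and NM lay near OM for MGP and S100A4 but in between for COL15A1.

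The next genes were of neural or developmental kinds. GFRA2, the receptor subunit for neurturin, gave 59.1 a.u. in OM, 1297 in MB, and 32.7 in NM, 19.7-fold higher in MB, and its other 2 probes had log2 ratios of 4.65 and 2.69. ID4, a helix-loop-helix inhibitor of differentiation factors, gave 55.3 a.u. in OM, 1168 in MB, and 71.1 in NM, 19.0-fold higher in MB. SOX2, a transcription factor of embryonic and neural stem cells, gave 559 a.u. in OM, 7974 in MB, and 287 in NM, and both of its probes differed alike, by 12.8-fold and 10.9-fold. In each of these 3 genes OM and NM lay together, well below MB.

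PRELP, a small leucine-rich matrix proteoglycan, was 15.6-fold higher in MB (80.8 a.u. on OM and 1403 on MB). CDH19, a cadherin of Schwann cell precursors, was 14.6-fold higher (29.7 and 481 a.u.), and BMPER, an extracellular regulator of bone morphogenetic proteins, 12.2-fold (27.1 and 369 a.u.). For CDH19 and BMPER the other probe was near background, at 23.2 and 25.4 a.u. on MB, so it gave no second reading. The list closed with FADS6, a fatty acid desaturase-like gene (11.6-fold), HSD17B14, a steroid dehydrogenase (10.4-fold), and SMCR8, a partner of C9orf72 in autophagy (10.3-fold). The OM signals of FADS6, BMPER, CDH19 and HSD17B14 were all close to background. The folds of these genes are thus less firm than those of genes brighter on OM.

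Among the 12 genes with the largest fold lower in MB, CXCL14, a chemokine of epithelia, gave 5457 ± 546 a.u. in OM, 275 ± 27.9 in MB, and 4244 in NM, 22.1-fold lower in MB. CXCL8, the neutrophil chemokine IL-8, gave 1657 a.u. in OM, 109 in MB, and 8082 in NM, 16.9-fold lower in MB. CHAC1, a glutathione-degrading target of ATF4, gave 9743 a.u. in OM, 671 in MB, and 10163 in NM, 16.2-fold lower in MB. NM was at or above OM for CXCL8 and CHAC1 and close to it for CXCL14, so MB stood apart from both monolayers.

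STC2, a secreted glycoprotein induced by ATF4, was 14.7-fold lower in MB (4643 a.u. on OM and 351 on MB), and its other probe had a log2 ratio of -3.90. CCN1, a matricellular protein read by YAP and serum response factor, was 13.1-fold lower (52406 and 4449 a.u.), with log2 ratios of -3.71 to -3.77 over its 3 probes. MMP1, the interstitial collagenase, is printed in 10 spots, with 4367 ± 170 a.u. on OM and 378 ± 21.2 on MB (SD over spots), 12.9-fold lower in MB. COL13A1, a transmembrane collagen, was 10.7-fold lower and AK5, an adenylate kinase, 10.0-fold lower by the brightest probe and with a log2 ratio of -1.37 by the other. CYRIA, a regulator of actin branching, was 14.3-fold lower, BCL11A, a zinc finger repressor, 10.2-fold, and TXK, a lymphocyte kinase, 10.0-fold. The largest ratio among these 12, that of CRISPLD2, was not repeated. The brightest probe of CRISPLD2, a secreted protein, read 630 a.u. on OM and 28.2 on MB, a log2 ratio of -4.64, but the next probe read 138 and 92.6 a.u., a 1.67-fold difference.

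**Figure D2:**
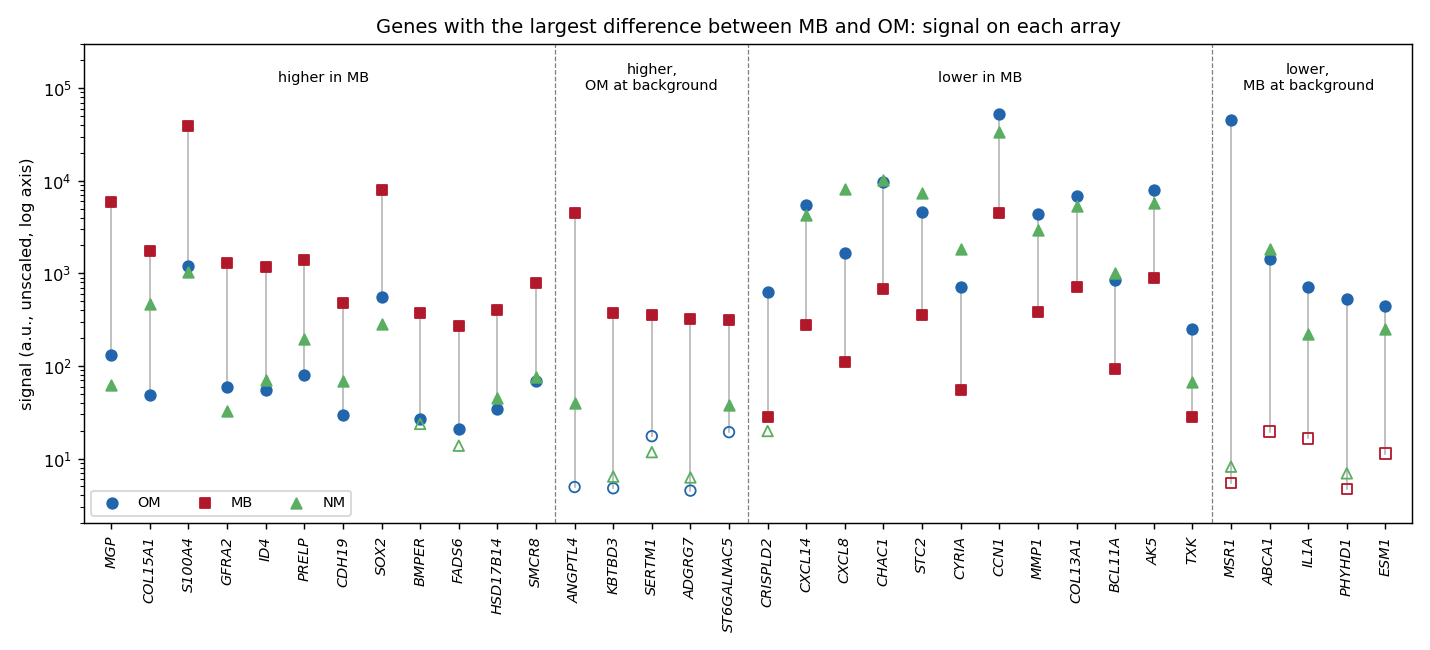
Unscaled signal in a.u. (log axis) on OM (circles), MB (squares) and NM (triangles) for the genes with the largest differences between MB and OM, in the order of the fold within each block. Open symbols are not well above background. In the first block NM lies closer to OM than to MB on the log axis for every gene but COL15A1, and MSR1 is a single bright spot on OM.

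Some genes were at background on OM or on MB. ANGPTL4, an inhibitor of lipoprotein lipase induced by PPARs and hypoxia, was at background in OM, gave 4456 a.u. in MB and 40.0 in NM, and was at least 191-fold higher in MB than in OM. ABCA1, the exporter of cholesterol to apolipoproteins, gave 1438 a.u. in OM and 1841 in NM but was at background in MB, at least 82.3-fold lower in MB. Its other 2 probes were near background on OM (43.6 and 40.4 a.u.) and gave at least 2.51-fold and at least 2.32-fold lower. IL1A, the cytokine interleukin-1 alpha, read 707 ± 27.8 a.u. over 10 spots in OM but was at background in MB, at least 40.6-fold lower. ESM1, an endothelial cell-secreted proteoglycan, was at least 25.8-fold lower in MB, and its other probe gave at least 5.96-fold lower.

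The other genes with the largest bounds were less firm. ST6GALNAC5, a sialyltransferase, read 312 a.u. on MB and was at least 13.4-fold higher. KBTBD3, SERTM1 and ADGRG7 each rest on 1 spot of 369, 356 and 321 a.u. on MB that was not well above background on OM or NM, and PHYHD1 on 1 such spot of 523 a.u. on OM. The other probe of KBTBD3 gave 50.0 a.u. in OM and 66.9 in MB (log2 ratio 0.26), and that of PHYHD1 gave 93.5 and 89.4 a.u. (log2 ratio -0.22). MSR1, a macrophage scavenger receptor, read 45009 a.u. in 1 spot on OM, while its other 2 probes were not well above background on any array. Of the 101 genes 5-fold or more higher in MB, 35 rested on a probe bright on MB alone, and 19 of these lay within 2 spot positions of another such spot. Of the 109 lower genes, 20 rested on a probe bright on OM alone, 8 of them near another. Without the genes that rest on a probe bright on 1 array alone, 66 were higher and 89 lower.

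Genes with more than 1 probe gave a second reading of the same RNA. Of 5096 genes with 2 or more probes well above background on both arrays, the 2 brightest differed by a median of 0.17 in log2 ratio, and by less than 0.74 in 90% of genes. For the 32 of these genes that were 5-fold or more different by the brightest probe, the next probe pointed the same way in all 32 and was past 2-fold in 30. The exceptions were CRISPLD2 and SECTM1, which read 85.4 a.u. on OM and 597 on MB by its brightest probe and had a log2 ratio of 0.08 by the next. Among genes at background on the dimmer array, by contrast, another probe was 2-fold or more different in the same direction in 1 of 13 higher and 4 of 20 lower genes that had one.

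**Figure D3:**
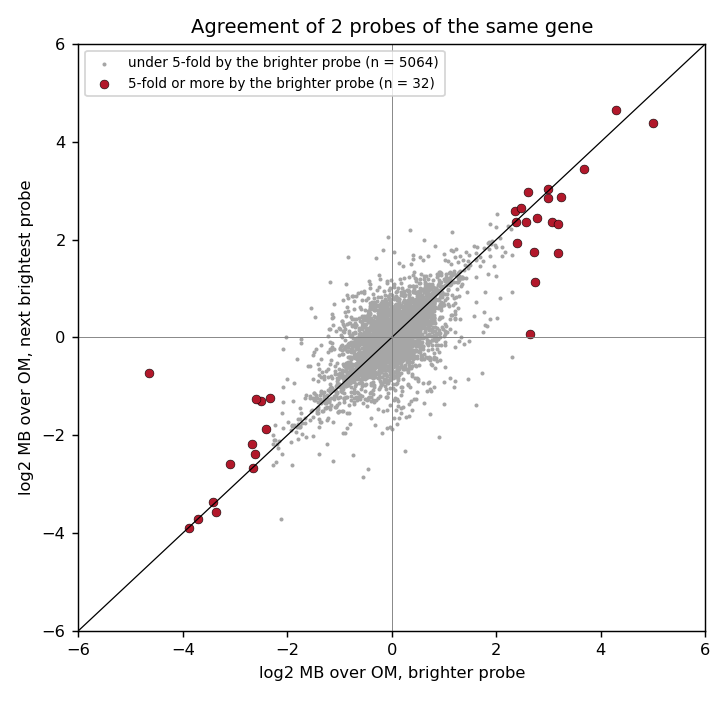
Log2 ratio of MB over OM by the brightest probe of a gene (horizontal) and by its next brightest probe (vertical), for 5096 genes with both probes well above background on both arrays. Red points are the 32 genes 5-fold or more different by the brightest probe, all of which lie in the upper right or lower left corner.

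The genes were then read through 54 lists of pathways, gene families and cell type programs. Of these lists, 1 had a median 2-fold or more higher in MB, sterol synthesis, and 3 had a median 2-fold or more lower, ATF4 and CHOP, serine and asparagine synthesis, and CXC chemokines. All other lists had medians within 2-fold.

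**Figure D4:**
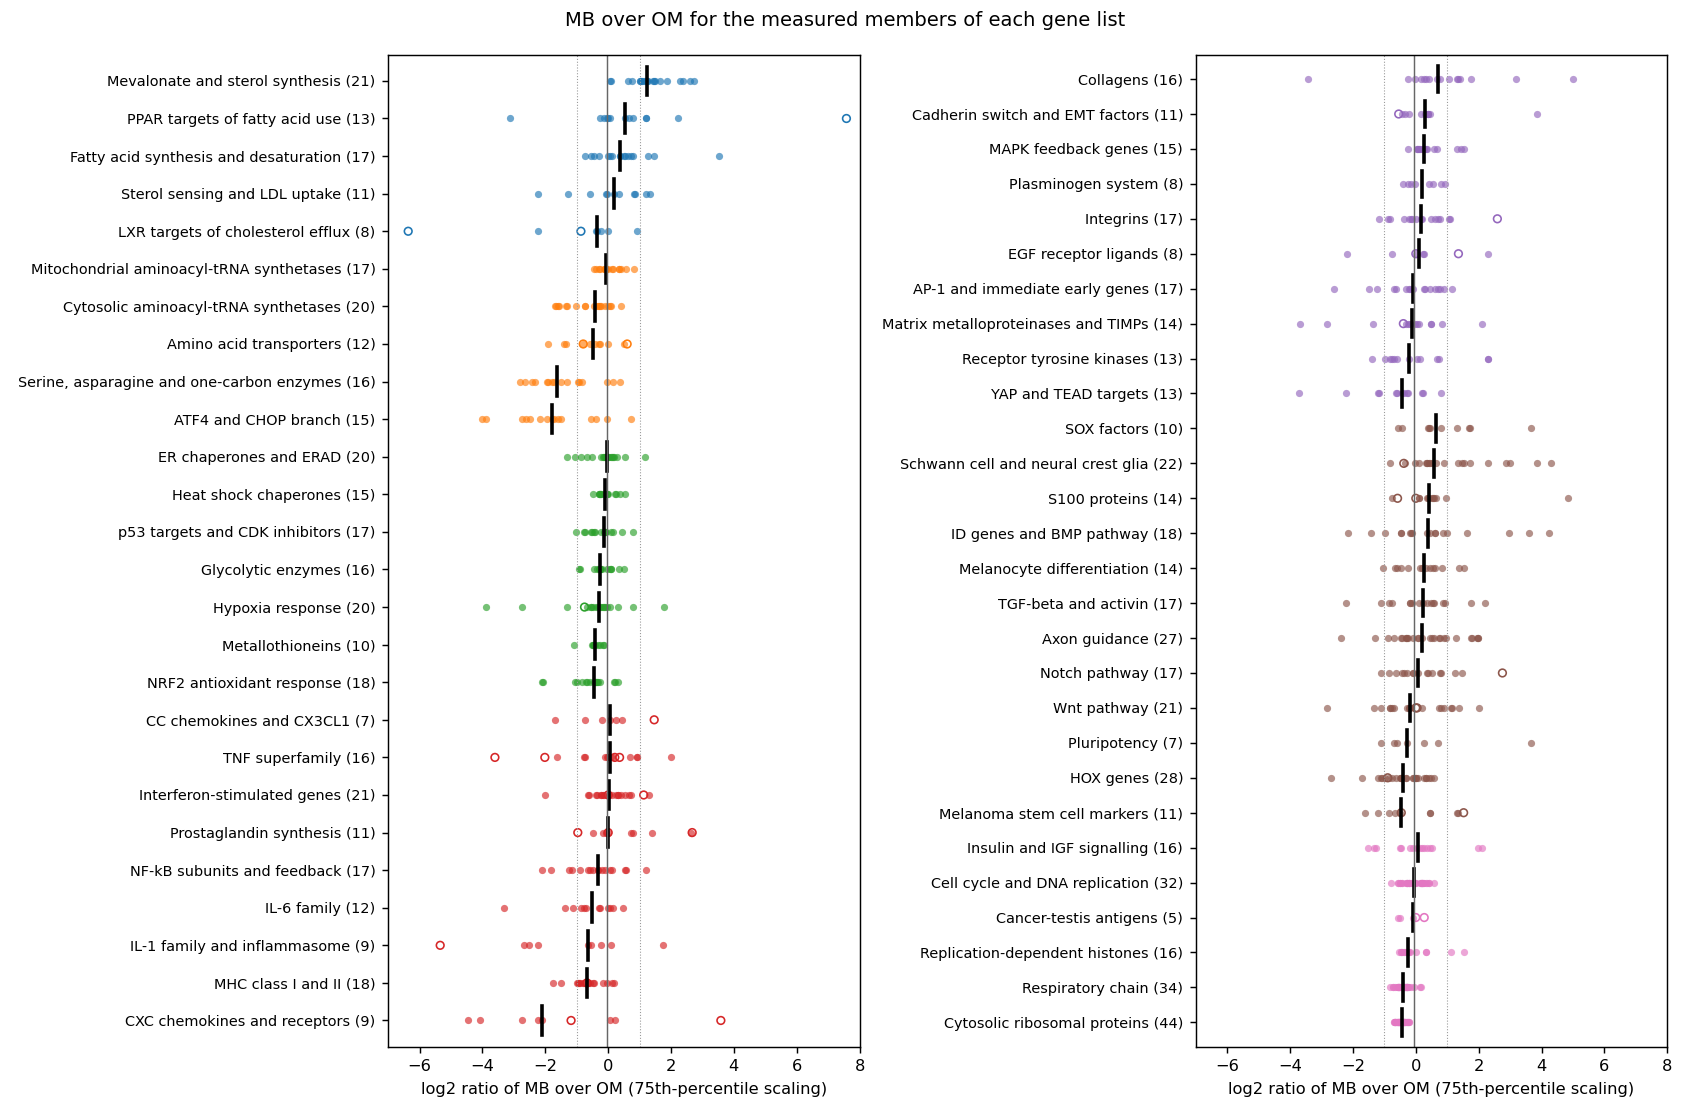
Log2 ratio of MB over OM for every measured member of the 54 lists, grouped and coloured by theme, with the number measured in brackets. Filled points were well above background on both arrays, open points on 1 array only (bounds), black bars are list medians, the grey line is the median of all measured genes (-0.05) and dotted lines mark 2-fold. The sterol list is shifted to the right as a whole, and the medians of the ATF4, serine and CXC lists lie to the left. Of the 9 measured CXC members, 3 lie to the right of the grey line.

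All 21 enzymes of the mevalonate and sterol pathway were measured, and 17 were 2-fold or more higher in MB, against 4.63% of all genes. None was lower, and the list median was 1.24. HMGCS1, which makes HMG-CoA at the head of the pathway, read 3982 a.u. on OM and 27186 on MB, 6.13-fold higher. The enzymes between mevalonate and squalene followed with IDI1 (3.15-fold), MVD (2.72-fold), MVK (2.02-fold) and FDPS (2.00-fold, 43411 and 96910 a.u.). Some enzymes at the far end of the pathway differed about as much as HMGCS1, while others beyond squalene, given below, differed less. MSMO1, a sterol C4 oxidase, read 475 and 3518 a.u. (6.64-fold, with a log2 ratio of 1.14 by its other probe), TM7SF2, a sterol C14 reductase, 1563 and 9066 a.u. (5.21-fold), and DHCR7, which makes cholesterol in its last step, 10134 and 54842 a.u. (4.86-fold).

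SQLE, LSS and CYP51A1, which turn squalene into the first sterols, were 2.36-fold, 2.07-fold and 2.20-fold higher. The 4 members short of 2-fold were EBP (1.69-fold), NSDHL (1.53-fold), and PMVK and GGPS1 with log2 ratios of 0.06 and 0.09. GGPS1 leads to geranylgeranyl groups for proteins rather than to sterols. Of the 17 genes past 2-fold, 10 had another probe well above background on both arrays, and in all 10 these probes were higher in MB too. With spike-in scaling 13 of the 21 remained past 2-fold, the lowest count over the scalings.

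The regulators of the pathway did not differ as a group (median 0.19 over 11 measured genes). SREBF2, the gene of SREBP2, was 2.52-fold higher in MB and INSIG1, a sterol-regulated brake on SREBP, 2.29-fold higher. SREBF1, whose product drives fatty acid synthesis, was 2.44-fold lower (79032 a.u. on OM and 36172 on MB). MYLIP, a ubiquitin ligase that is induced by the sterol sensor LXR, was 4.69-fold lower. Of the 8 measured LXR targets of cholesterol efflux, MYLIP and ABCA1 were 2-fold or more lower in MB and none was 2-fold higher. ABCG1 was near background on OM (31.7 a.u.), and APOE read 160 a.u. on OM and 140 on MB.

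Fatty acid synthesis differed less (median 0.38 over 17 genes, 3 of them 2-fold or more higher and none lower). FASN, the fatty acid synthase, had a log2 ratio of 0.50, SCD, the stearoyl-CoA desaturase, of 0.53 and ACACA, acetyl-CoA carboxylase, of 0.38, and TMEM97, a sterol-binding membrane protein, was 2.77-fold higher. ACSS2, which makes acetyl-CoA from acetate, was 2.43-fold higher by its brightest probe and had a log2 ratio of -0.07 by the other. FADS6 was the remaining member past 2-fold, from its low OM signal. Among 13 measured PPAR targets of fatty acid use, 4 were higher. Besides ANGPTL4 these were PPARGC1A, a coactivator of oxidative metabolism (4.64-fold, from 31.0 to 161 a.u.), CPT1A, which admits fatty acids to mitochondria (2.30-fold), and PDK4, a brake on glucose oxidation (2.29-fold). The exception was LPL, lipoprotein lipase, which gave 3082 a.u. in OM, 395 in MB, and 3151 in NM, 8.69-fold lower in MB. ANGPTL4 and LPL, an inhibitor and its enzyme, thus differed in opposite directions. Over the 5 lipid lists together, 26 of 69 measured genes were 2-fold or more higher and 4 were lower.

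**Figure D5:**
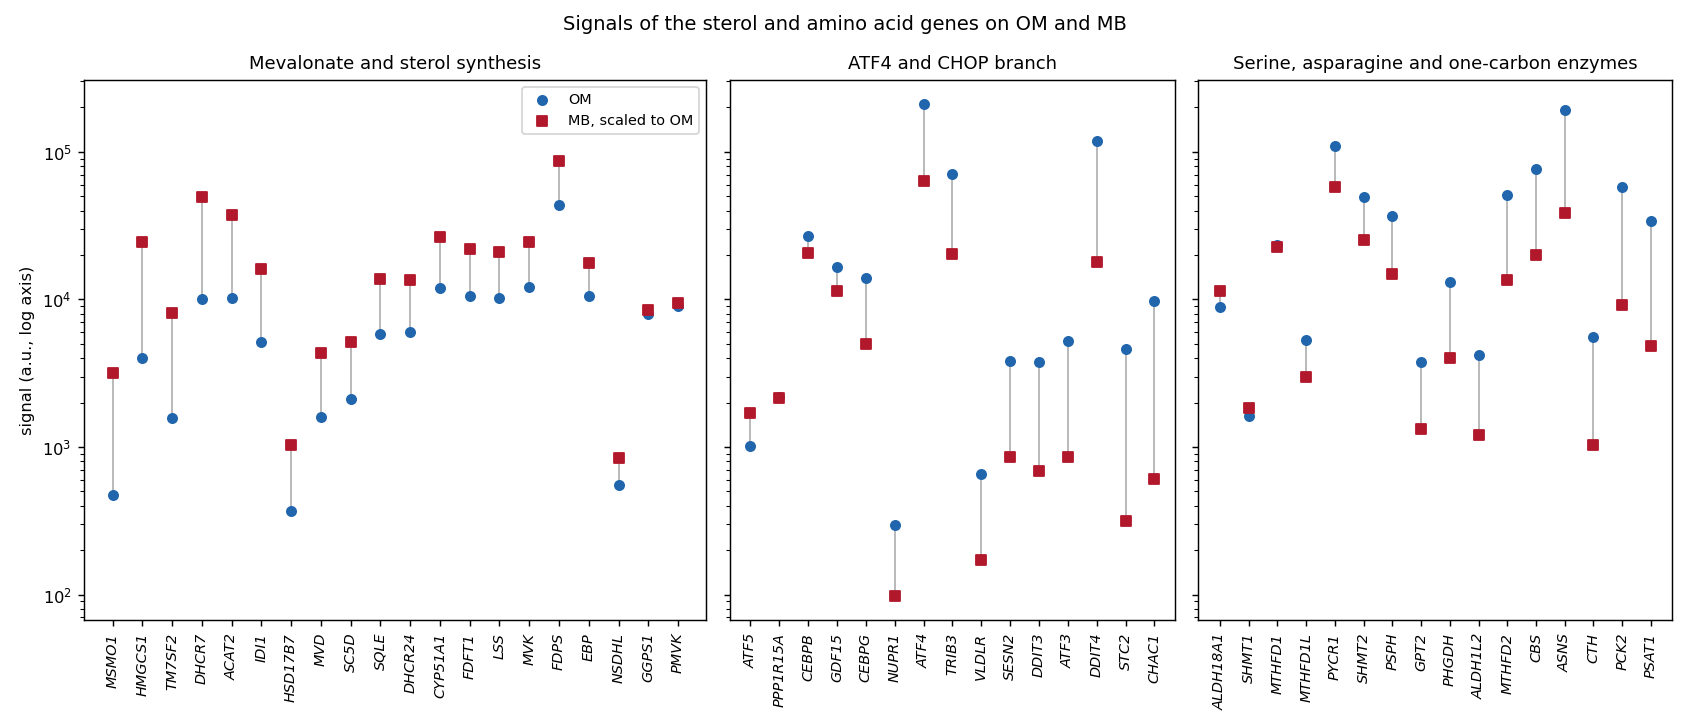
Signals in a.u. (log axis) on OM (circles) and MB (squares, divided by 1.11 to put both arrays on the same 75th percentile) for 3 gene lists, ordered by the ratio, with 1 sterol gene left out. MB lies above OM for all sterol genes drawn, and below OM for 14 of 15 ATF4 and CHOP genes and 14 of 16 serine, asparagine and one-carbon genes.

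The genes of amino acid supply differed in the other direction. ATF4, the transcription factor of the integrated stress response, gave 209955 a.u. in OM, 71217 in MB, and 233007 in NM, 3.29-fold lower in MB. Of the 15 genes of the ATF4 and CHOP branch, all measured, 11 were 2-fold or more lower and none was 2-fold higher (median -1.79), against 5.74% of all genes lower. DDIT3, which encodes CHOP, was 5.55-fold lower, ATF3, a stress-induced repressor, 6.12-fold, DDIT4, an inhibitor of mTORC1, 6.63-fold, and TRIB3, a pseudokinase that restrains ATF4, 3.46-fold. SESN2, a leucine sensor upstream of mTORC1, was 4.47-fold lower. ATF5 was the exception, 1.67-fold higher, while PPP1R15A, the phosphatase subunit that ends the stress response, had a log2 ratio of -0.03. CEBPB and GDF15 were 1.31-fold and 1.45-fold lower.

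The enzymes that make serine, asparagine and one-carbon units had a median of -1.62, with 10 of 16 measured genes 2-fold or more lower and none 2-fold higher. PSAT1, the aminotransferase of serine synthesis, gave 33916 a.u. in OM, 5367 in MB, and 64580 in NM, 7.04-fold lower in MB. The other steps of that pathway, PHGDH and PSPH, were 3.31-fold and 2.48-fold lower. PCK2, mitochondrial PEP carboxykinase, was 6.28-fold lower, CTH and CBS, which turn homocysteine into cysteine, 5.37-fold and 3.83-fold, and ASNS, asparagine synthetase, 5.01-fold (191608 a.u. on OM and 42590 on MB, with a log2 ratio of -1.23 by its other probe). In the folate branch the mitochondrial enzymes MTHFD2 and ALDH1L2 were 3.79-fold and 3.45-fold lower, whereas the cytosolic MTHFD1 and SHMT1 had log2 ratios of -0.03 and 0.17. ALDH18A1, which starts proline synthesis, had a log2 ratio of 0.37. Of the genes past 2-fold, 4 in the ATF4 list and 6 in the serine list had another probe above background on both arrays, and all of these probes were lower in MB as well.

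Amino acid transporters were lower to a smaller extent, with 3 of 12 measured genes past 2-fold. SLC7A5 and SLC3A2, the 2 chains of the leucine transporter, were 3.75-fold and 2.67-fold lower, and SLC38A1, a glutamine transporter, 2.53-fold. SLC7A11, the cystine importer, was 1.34-fold lower, and SLC38A2, another glutamine transporter, had a log2 ratio of 0.49. The aminoacyl-tRNA synthetases, which load amino acids onto tRNA, differed by compartment. Of 20 cytosolic enzymes, 7 were 2-fold or more lower in MB, with a list median of -0.43, and of 17 mitochondrial enzymes none was past 2-fold in either direction, with a median of -0.06. The 7 were WARS1 (3.20-fold), GARS1 (3.15-fold), CARS1 (3.01-fold), YARS1 (2.96-fold), SARS1 (2.56-fold), AARS1 (2.47-fold) and MARS1 (2.01-fold). FARSA and HARS1, at log2 ratios of 0.42 and 0.10, were the cytosolic members at the other end. Over the 5 amino acid lists, 31 of 80 measured genes were 2-fold or more lower and none was 2-fold higher.

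ATF4 and its partners bind the C/EBP-ATF response element, and 4 promoters of genes lower in MB are shown with its letters, TGATGNAA, searched on both strands. Capitals mark the match, and each stretch is 60 bases long, lies within 250 bases upstream of the RefSeq start (GRCh38.p14) and is read 5′ to 3′ on the strand of the gene. They lie at chr7:97872442-97872501 (ASNS, minus strand), chr15:40953237-40953296 (CHAC1, plus strand), chr16:70289659-70289718 (AARS1, minus strand) and chr1:212565191-212565250 (ATF3, plus strand).
ASNS: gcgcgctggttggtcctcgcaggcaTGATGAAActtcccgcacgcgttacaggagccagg
CHAC1: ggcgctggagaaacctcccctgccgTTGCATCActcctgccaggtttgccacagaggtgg
AARS1: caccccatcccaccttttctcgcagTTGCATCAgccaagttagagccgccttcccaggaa
ATF3: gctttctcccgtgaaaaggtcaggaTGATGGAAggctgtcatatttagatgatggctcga
The letters stood in the 300 bases around the start (250 before and 50 after) of 13 of 51 measured genes of the ATF4, serine, transporter and cytosolic synthetase lists that had a promoter sequence, or 25.5%. They stood in 1.92% of the promoters of all 11212 measured genes with a sequence and in 3.67% of 27305 promoters in the table. Within these lists they were found in 8 of 26 genes 2-fold or more lower in MB and in 5 of 25 genes within 2-fold. The lists were put together from genes known to be read by ATF4 among others, so the match describes the lists and is no independent evidence. The sterol response element in the form TCACNCCAC was found in none of the 16 sterol genes with a promoter sequence and in 1.08% of measured genes, which says only that these letters are not in this window.

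Other stress programs had medians within 2-fold. The chaperones and degradation factors of the endoplasmic reticulum had a median of -0.05 over 20 genes. DNAJC3, an inhibitor of the kinase PERK, was 2.24-fold higher in MB, HERPUD1 and XBP1, read by the unfolded protein response, were 2.50-fold and 2.06-fold lower, and HSPA5, the chaperone BiP, was 1.61-fold lower. None of 15 heat shock chaperones was past 2-fold. Of 18 NRF2 targets, 3 were 2-fold or more lower (median -0.44), namely AKR1C1 (109 a.u. on OM and 28.1 on MB), HMOX1, heme oxygenase (4.24-fold, 3648 and 959 a.u.), and GCLM, a subunit of glutathione synthesis (2.10-fold). In the hypoxia list PFKFB4 was 3.46-fold higher in MB, and DDIT4, STC2 and LOX were lower, the first 2 of which are also ATF4 genes. Other hypoxia genes were close to level, with log2 ratios of 0.31 for VEGFA and -0.22 for NDRG1. The hypoxia median was -0.31, with 15 of 20 genes below the median of all genes, as were 15 of 18 NRF2 targets. All 10 metallothioneins, which bind zinc and copper, were below it too (median -0.43), 1 of them past 2-fold. No glycolytic enzyme was past 2-fold.

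Over the 9 inflammatory lists, 24 of 120 measured genes were lower in MB by 2-fold or more and 10 were higher, with a median of -0.22. Of 16 CXC chemokines and receptors on the array 9 were measured, and the list median was -2.12. The list was split, with 6 members 2-fold or more lower in MB and 3 above the median of all genes. CXCL1, a neutrophil chemokine, gave 49621 a.u. in OM, 8306 in MB, and 184837 in NM, 6.66-fold lower in MB than in OM. CXCL2 and CXCL3, its close relatives on chromosome 4, were 4.67-fold and 4.35-fold lower by their brightest probes, with log2 ratios of -2.55 and -3.70 by the others, and CXCL5, of the same cluster, had a log2 ratio of 0.06. Probes of CXCL1, CXCL2 and CXCL3 may share signal because the transcripts are alike. ACKR3, a scavenger receptor, was near background on OM (39.4 a.u.). CXCR2, the only member 2-fold or more higher, rests on 1 spot of 279 a.u. on MB.

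NF-kB drives several of these genes, and the matching promoter stretches are shown for the cluster and for IL6, again as 60 bases within 250 upstream of the start in GRCh38.p14, with matches to the NF-kB consensus in capitals. They lie at chr4:73869289-73869348 (CXCL1, plus strand), chr4:74099239-74099298 (CXCL2, minus strand), chr4:74038734-74038793 (CXCL3, minus strand), chr4:73998734-73998793 (CXCL5, minus strand) and chr7:22727102-22727161 (IL6, plus strand).
CXCL1: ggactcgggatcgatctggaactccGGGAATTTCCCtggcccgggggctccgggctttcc
CXCL2: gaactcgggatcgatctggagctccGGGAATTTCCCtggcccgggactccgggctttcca
CXCL3: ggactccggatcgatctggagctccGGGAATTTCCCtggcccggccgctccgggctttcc
CXCL5: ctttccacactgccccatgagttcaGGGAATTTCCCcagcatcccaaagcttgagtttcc
IL6: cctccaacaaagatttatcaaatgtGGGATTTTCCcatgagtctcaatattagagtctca
The consensus stood in 13 of 39 measured genes of the CXC, IL-1, IL-6 and NF-kB lists with a promoter sequence (33.3%), against 13.1% of measured genes and 10.8% of all promoters in the table, and in 4 of the 16 sterol genes. The lists were put together from genes known to be read by NF-kB among others, so the match is no independent evidence. The match GGGAATTTCCC was the same in CXCL1, CXCL2, CXCL3 and CXCL5. The consensus was present in 5 of 13 genes 2-fold or more lower and in 8 of 23 within 2-fold, CXCL5 among the latter.

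IL1B, interleukin-1 beta, gave 235475 a.u. in OM, 45284 in MB, and 330913 in NM, 5.80-fold lower in MB than in OM. NLRP3 and CASP1, the sensor and the protease of the inflammasome that matures it, were 6.37-fold and 4.74-fold lower, the latter with 28.2 a.u. left on MB. With IL1A, 4 of 9 measured genes of this family were 2-fold or more lower, and IL1RAP, the accessory receptor chain, was the exception at 3.34-fold higher by its brightest probe, with log2 ratios of 0.12 to 2.07 by its other probes. IL6 gave 7223 a.u. in OM, 817 in MB, and 10730 in NM, 9.86-fold lower in MB, and LIF and CLCF1 of the same family were 2.62-fold and 2.16-fold lower. The receptor genes IL6R and IL6ST and the mediator STAT3 had log2 ratios of 0.47, 0.15 and 0.06. The ligands past 2-fold were all lower, and no receptor or mediator of the list was past 2-fold.

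Of 17 NF-kB subunits and feedback genes, 4 were 2-fold or more lower, ICAM1, an adhesion molecule (4.28-fold), BIRC3, an apoptosis inhibitor (3.56-fold), SOD2, manganese superoxide dismutase (2.36-fold), and NFKB2 (2.22-fold). TRAF1 was 2.29-fold higher, and RELA, REL and NFKB1, the subunits themselves, had log2 ratios of 0.07, -0.10 and -0.19. CCL2, a monocyte chemokine, was 3.25-fold lower (24536 and 8406 a.u.), whereas CX3CL1 had a log2 ratio of 0.25. In the TNF superfamily TNFRSF21 was 3.97-fold higher and TNFRSF9 at least 12.2-fold lower. Not all inflammatory mediators were lower. PTGS2, cyclooxygenase-2, read 52.9 a.u. on OM and 365 on MB, 6.19-fold higher, and PLA2G4A, which frees its substrate, was 2.64-fold higher, while PTGS1 rests on 1 spot of 148 a.u. on MB. Interferon-stimulated genes had a median of 0.03 over 21 genes, with ISG20 the lowest at 4.04-fold lower and IFITM1 the highest measured on both arrays at 2.44-fold higher. HLA class I and II genes had a median of -0.66, and 2 of 18 were past 2-fold, HLA-DRA (152 and 50.3 a.u.) and HLA-DPB1 (392 and 155 a.u.).

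Matrix genes differed in both directions. Of 16 measured collagens, 7 were 2-fold or more higher in MB, against 4.63% of all genes, and 1 was lower (median 0.71). Besides COL15A1, COL12A1, a fibril-associated collagen, was 9.10-fold higher (1652 a.u. on OM and 16748 on MB), COL8A1 3.37-fold, COL7A1, of anchoring fibrils, 2.66-fold, COL6A3 2.54-fold, COL16A1 2.49-fold and COL5A1 2.07-fold. The other probe of COL12A1 had a log2 ratio of 1.73. COL13A1 was the exception. Fibrillar COL1A1, COL1A2 and COL3A1 were not measured. Among the metalloproteinases MMP16, a membrane-bound enzyme, was 4.33-fold higher (2070 and 9999 a.u.), while the secreted MMP1 and MMP9 were 12.9-fold and 7.16-fold lower and MMP19 2.55-fold lower. The inhibitors TIMP1 and TIMP2 had log2 ratios of 0.09 and -0.25.

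Integrins differed in single members, with ITGA9 2.13-fold and ITGA7 2.06-fold higher, ITGA10 seen on MB alone, and ITGA4 2.24-fold lower. Of the genes used to follow epithelial to mesenchymal change, CDH19 alone was past 2-fold, and SNAI1, SNAI2, TWIST1, ZEB1, ZEB2, FN1 and VIM all had log2 ratios between -0.35 and 0.44. Among 13 targets of YAP and TEAD, the factors that respond to cell shape and density, 4 were lower and none was higher, CCN1, CCN2 (4.66-fold, 27142 and 6499 a.u.), CRIM1 and AMOTL2. Immediate early genes divided, with EGR1 2.20-fold higher and ATF3, FOSL2 and FOSL1 lower. Of 15 MAPK feedback genes, 3 were 2-fold or more higher, SPRY1 (2.88-fold), SPRY4 (2.71-fold) and DUSP4 (2.47-fold), and none was lower. Of the receptors, ERBB3, for neuregulins, gave 737 a.u. in OM, 4055 in MB, and 253 in NM (4.94-fold higher in MB, with log2 ratios of 0.92 and 2.56 by its other probes), and FGFR1 2704, 14656 and 2644 a.u. (4.86-fold). NRG1, a ligand of ERBB3, was 4.60-fold lower, with log2 ratios of -2.18 and -0.19 by its other probes, and FGFR3 was 2.61-fold lower.

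Of 22 measured Schwann cell and neural crest glia genes, 19 were above the median of all genes, 9 were 2-fold or more higher and none was 2-fold lower (median 0.57). GJB1, the connexin of Schwann cell myelin, gave 235 a.u. in OM, 2081 in MB, and 60.1 in NM, 7.95-fold higher in MB, and 7.21-fold by its other probe. LGI4, a Schwann cell ligand needed for myelination, read 38.7, 319 and 55.5 a.u. on the 3 arrays, 7.38-fold higher. GFRA2, CDH19, ERBB3, SOX8 (3.32-fold), EDNRB, the endothelin receptor of the neural crest (2.90-fold), TFAP2B (2.75-fold) and NGFR, a neural crest stem cell receptor (2.52-fold), were the others. SOX8 rests on its brightest probe, since the other had a log2 ratio of -0.72. Of the more mature markers, PMP22 had a log2 ratio of -0.36 and MBP read 27.6 and 42.4 a.u. GFRA2, GJB1, LGI4, S100A4, SOX2, ID4 and NOTCH1 were picked by the study on these samples, so their direction here is not independent evidence.

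Of 10 measured SOX factors, 4 were 2-fold or more higher, SOX2, SOX8, SOX5 (3.24-fold) and SOX4 (2.50-fold), while SOX10 and SOX9 had log2 ratios of 0.43 and 0.38. The pluripotency list did not follow SOX2. Of its 7 measured genes SOX2 alone was 2-fold higher, MYC had a log2 ratio of 0.71 and POU5F1 of 0.25, SALL4 was 2.17-fold lower and KLF4 had a log2 ratio of -0.69. ID4 likewise stood apart in its family, with ID2 at 0.62, ID1 at -0.47 and ID3 at -0.98 on the log2 scale. Its extracellular neighbors were BMP4, at 38.2 a.u. on OM and 330 on MB (7.77-fold higher), BMP7 (9068 and 31021 a.u., 3.07-fold higher) and BMPER, whereas BMP6 was 4.44-fold lower and SMAD6, an inhibitor of the pathway, 2.68-fold lower.

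In the Notch pathway the receptor NOTCH1, printed in 10 spots, read 320 ± 9.09 a.u. on OM and 855 ± 40.1 on MB, 2.40-fold higher (SD over spots, which leaves out the difference between cultures). Its target HEY2 was 2.75-fold higher and HEY1 2.14-fold lower, HES1 had a log2 ratio of 0.80, and the ligand DLL1 rests on 184 a.u. on MB with OM at background. S100A4 was the only one of 14 measured S100 proteins past 2-fold. S100B and S100A1 had log2 ratios of 0.64 and 0.95. Of the melanocyte differentiation genes LEF1 was 2.59-fold higher, MLPH, of melanosome transport, 2.08-fold lower, and MITF had a log2 ratio of 0.61. Stem cell surface markers were mixed, with NGFR and the transporter ABCB1 (2.46-fold) higher and ABCG2 (3.05-fold) and CD44 (2.32-fold) lower, while ABCB5 was near background.

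Of 21 measured genes of the Wnt list 4 were 2-fold or more higher and 3 lower (median -0.18), against 4.63% and 5.74% of all genes. The higher ones were NKD1 (4.02-fold) and ZNRF3 (2.25-fold), both feedback inhibitors, LEF1 and FZD8 (2.17-fold). The lower ones were DKK1, a secreted inhibitor (7.15-fold, 382 and 59.5 a.u.), WNT5B (2.54-fold) and NKD2 (2.17-fold). TGFB1 was 3.36-fold higher and INHBB 4.64-fold higher, and SMAD3 4.69-fold lower (12214 and 2905 a.u.). Of 27 measured axon guidance genes 6 were 2-fold or more higher and 2 lower (median 0.19), against the same shares of all genes. The higher members were led by SEMA5A (3.97-fold), SEMA3B (3.94-fold) and EPHB3 (3.82-fold). The lower members were NTN4 (5.22-fold) and NRP1 (2.45-fold). IGF2 gave 18293 a.u. in OM, 79588 in MB, and 56352 in NM, 3.90-fold higher in MB, and its binding proteins IGFBP5 and IGFBP6 were 4.28-fold higher and 2.86-fold lower. Of 28 measured HOX genes 5 were 2-fold or more lower and none was higher, led by HOXA4 (6.53-fold, 553 and 94.3 a.u.) and HOXA2 (3.26-fold). Without scaling, or scaled to the housekeeping genes, 3 HOX genes were past 2-fold.

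The genes of growth were close to level. None of 32 cell cycle and replication genes was past 2-fold, with a list median of -0.06 and values from -0.80 (CDT1) to 0.58 (CDK2). The proliferation marker MKI67 had a log2 ratio of 0.14 and CCNB1 of -0.28. All 44 measured cytosolic ribosomal protein genes were slightly lower in MB, between -0.70 (RPL38) and -0.22, with a median of -0.46, and 32 of 34 respiratory chain genes were below 0 with a median of -0.40. These are bright genes, and other bright genes leaned the same way to a smaller extent. The 73 genes of the 2 lists at 10000 a.u. or more had a median of -0.44, with 97.3% below 0. The 2458 genes of 10000 a.u. or more in neither list had a median of -0.15, with 66.7% below 0. After quantile normalization, which equalizes the bright ends of the arrays, the ribosomal median was -0.15 and 40 of 44 genes were below 0. The part of signal level in this shift was not tested.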

How the data were processed

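The authors' deposited scanner tables give spot intensity in arbitrary units, made with Agilent Feature Extraction (version 9.5.3.1 per the file headers), after a fitted background surface had been subtracted from each spot and low values had been replaced. The deposited series table holds the same intensity values for 43376 of 43376 spots per array (within 0.1%). Control spots and outlier spots (77 on OM, 79 on MB) were left out, the mean was taken over a probe's spots, signals were scaled to the 75th percentile of their array and ratios were put on the log2 scale. Gene names came from a RefSeq table (GRCh38.p14), through the accession of 23795 probes, the symbol of 2023 and an older symbol of 977, and the 14205 other probes were not counted as named genes. A gene was represented by its brightest probe. Probe positions are in hg17, as deposited. The arrays share 1 slide. Named genes are the 12 largest differences each way among known genes above 100 a.u., the 5 largest bounds each way, genes the study followed up by qRT-PCR, list members furthest from 0, and exceptions. Members and lists were chosen with earlier results of these data known. With 1 array per group no test was run, and the number of arrays limits precision. Scripts were tested on simulated data. Python 3.11.15, pandas 2.3.3, R 4.3.3 and limma 3.58.1 were used. Some genes counted in the lists are not reported here by name.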

Additional observations from a re-analysis of the deposited data

How the results depend on the processing

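No paired analysis was possible because each condition has 1 array, and the slide could not serve as a block because all arrays share it. Among the alternatives, normexp background correction changed the counts most, to 417 genes higher and 519 lower at 2-fold and 37 higher and 35 lower at 5-fold, since its offset of 50 shrinks the ratios of dim genes. With both arrays required to be well above background, 60 genes were 5-fold higher and 60 lower. Without a filter on dim probes they were 166 and 193, and with the signals as they stand 166 and 181. Without genes resting on a probe bright on 1 array alone, an alternative chosen after seeing the data, 66 were 5-fold higher. The other 49 counts were within 1.5 times the reported ones.

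Relative to the median of all genes, the medians of the sterol, ATF4, serine and collagen lists kept their direction under all alternatives, at 1.24 to 1.36, -1.81 to -1.56, -1.70 to -1.50 and 0.50 to 1.00. The CXC list went from -2.07 to -0.35 without a filter on dim probes, which adds its members at background. The relative median of the glycolytic enzymes turned to 0.029 with quantile normalization, and that of the receptor tyrosine kinases to 0.030 with normexp and 0.080 with the median over probes. For the CC chemokines and CX3CL1 it turned to -0.018 with both arrays above background, -0.12 without a filter and -0.31 with the brighter array above 100 a.u., and for TGF-beta and activin to -0.011 without a filter. The sign also changed under some alternative for the heat shock and ER chaperones, the metalloproteinases and TIMPs, and the immediate early genes. It did so too for the cell cycle, mitochondrial synthetase and prostaglandin lists. The reported relative medians of these further lists lay between -0.062 and 0.051. Except where the construction of the setting shows it, the cause was not tested. Of the genes with the largest differences and bounds and those of the qRT-PCR, which were recomputed, none changed direction. With the median over probes, ABCA1 moved from -6.36 to -1.33, CRISPLD2 from -4.64 to -0.74 and CDH19 from 3.86 to 1.93, and with normexp LGI4 moved from 2.88 to 1.77. Other genes were not recomputed.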

Other observations

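Further lists were written after these values had been seen, so they are no independent evidence. Their counts stand against 4.63% of all measured genes 2-fold or more higher in MB and 5.74% lower. Of 11 measured laminins 1 was 2-fold or more lower and none was higher. Among 10 measured ADAMTS proteases 1 was higher and 1 lower. In the Hedgehog pathway, which patterns embryonic tissues, the receptor and target PTCH1 gave 74.4 a.u. in OM, 473 in MB, and 33.8 in NM, and the transcription factor and target GLI1 read 105, 666 and 159 a.u. They were 5.70-fold and 5.69-fold higher in MB than in OM. The other members past 2-fold were FOXF1, 2.14-fold higher, and HHIP, an inhibitor of the ligands, which was not well above background on MB. The receptor SMO had a log2 ratio of 0.02, and the ligand DHH of -0.30. The 13 measured members of this list had a median of 0.07, with 3 of them 2-fold or more higher and 1 lower. Among small leucine-rich proteoglycans, 4 of 12 were measured, and BGN was 4.37-fold higher (75.1 and 366 a.u.) beside PRELP, while FMOD was at background on OM and read 125 a.u. on MB. GJB1 was the only one of 7 measured connexins past 2-fold, and the others lay between -0.34 and 0.29 in log2 ratio. Of 12 actin and adhesion genes read by serum response factor, ACTG2 was 4.06-fold higher and TAGLN 2.15-fold higher, and TPM1 2.97-fold lower (173160 and 64882 a.u.). The other probes of TPM1 had log2 ratios from -1.76 to 0.19.

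Of 8202 transcripts with a signal that kept the array's name, 38 were 5-fold or more higher in MB and 56 lower, 14 and 25 of them well above background on both arrays.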
